A study of Rattus norvegicus with 6 samples.

Results

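The ADAMTS proteases are secreted, zinc-dependent enzymes that cut proteins of the extracellular matrix, and 10 genes of the family were followed here in rat cartilage cells held still or exposed to fluid flow. The genes were Adamts1, Adamts2, Adamts4, Adamts5, Adamts6, Adamts7, Adamts9, Adamts10, Adamts12 and Adamts15, taken by symbol from a count table of 32161 genes. RNA came from primary cells of the superficial layer of rat articular cartilage, the layer next to the joint fluid. The static group, with 3 libraries, was kept at 0 dyne/cm². The shear group, also with 3 libraries, met flowing fluid with a shear stress of 20 dyne/cm². The sources used here do not give the rat strain, the age of the animals, the length of the exposure or any pooling of animals. The title of the series places the comparison in the setting of osteoarthritis and of the Hippo pathway with its effector YAP.

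ADAMTS enzymes are made with a prodomain that furin-like proteases typically remove, followed by a metalloprotease domain and by thrombospondin-type repeats that help them bind matrix. Several members are known as aggrecanases, because they cleave the core protein of aggrecan, the proteoglycan that lets cartilage hold water. Of these, ADAMTS4 and ADAMTS5 are the best known in cartilage, and in mice ADAMTS5 is the main aggrecanase of the joint. ADAMTS1, ADAMTS9 and ADAMTS15 cleave versican and, less efficiently or in other settings, aggrecan. Other members process collagens or bind other matrix proteins. The inhibitor TIMP3 and the endocytic receptor LRP1 limit the activity and the amount of the aggrecanases outside the cell. The libraries measure transcripts, so neither protein nor cleavage was observed.

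Library totals lay between 33342775 and 33979479 counts. Whether replicates were separate cultures or animals is not stated in the labels, so the p-values reflect a spread between libraries that could be technical. Markers of the labelled cells were partly present. Of the superficial zone markers, Prg4, the lubricin gene, averaged 18.8 CPM (counts scaled to a common library size) in static libraries, while Erg had 2 to 4 counts per library. The other listed markers of this zone, Cd44, Thbs4, Abi3bp and Vcam1, averaged 1029, 81.2, 21.8 and 0.79 CPM in static libraries. Chondrocyte matrix markers were uneven, with 4 to 8 counts per library for Col2a1 and 0 to 2 each for Col9a1 and Hapln1, but with 359 to 515 for Acan and 18365 to 20481 for Col11a1. Fibroblast-type collagen was abundant, with Col1a1 at 6101 CPM in static libraries.

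All 10 genes had enough counts to be tested. Under shear 3 of them fell, Adamts5, Adamts15 and Adamts1, and 0 rose (edgeR quasi-likelihood test, Benjamini-Hochberg adjusted p under 0.05 over the 13945 genes tested). By DESeq2 the counts were also 3 lower and 0 higher, beside 925 lower and 1442 higher of the 13945 genes. An unadjusted edgeR p under 0.05 was found for 4 members and for 4102 of the 13945 genes. Of all genes tested, 7.71% were lower and 10.8% higher at an edgeR adjusted p under 0.05. Groups did not overlap in 4 of the members, with shear below static in each of the 4, against 32.7% of all genes tested that did not overlap in either direction and 15.9% with shear below static. The median log2 fold change of the members was -0.02 and that of all genes tested -0.01. Among the 5 members known to cleave aggrecan or versican, 3 were lower, and the 5 with other roles ranged from -0.09 to 0.12 on the log2 scale with 0 past the threshold (smallest edgeR adjusted p = 0.32). This grouping follows textbook roles and was made with results of these data known, so no test of the difference was made.

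**Figure D1:**
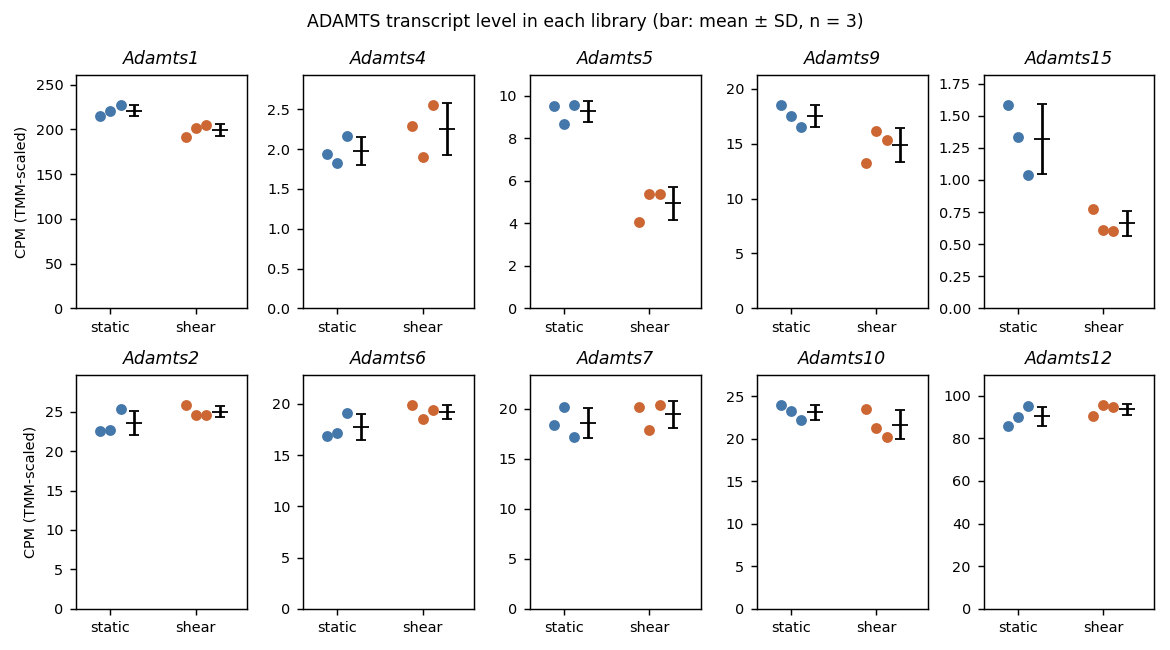
Transcript level of each member in CPM scaled with TMM factors (vertical axis, from 0, a separate scale for each gene) in the 3 static and 3 shear libraries (points), with the mean ± SD of each group (bars). The upper row holds the members that cleave aggrecan or versican, and in Adamts1, Adamts5, Adamts9 and Adamts15 each shear library lies below each static library.

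Adamts5, the aggrecanase gene named above, had the clearest change. It lies on chromosome 11 at 25410975 to 25456836, minus strand, in the coordinates of the count table, whose build is not stated. Its level was 9.53, 8.69 and 9.56 CPM in static libraries 1 to 3 and 4.05, 5.39 and 5.38 CPM in shear libraries 1 to 3. The lowest static library stood well above the highest shear library, and shear library 1 was the lowest of all. The raw counts behind these values were 300 to 331 per static and 136 to 179 per shear library. The fall amounted to 46.7% (log2 fold change -0.91 ± 0.12 SE, 95% interval -1.16 to -0.66, edgeR adjusted p = 4.1e-06). Only 1.44% of the tested genes had a lower log2 fold change. Without shear library 1 the log2 fold change was -0.78, and the call of Adamts5 held under all 14 alternative settings that were run, with log2 fold changes from -0.97 to -0.78.

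Adamts15, which encodes a versican-cleaving relative, fell by a similar factor from a much lower level. It lies on chromosome 8 at 31977001 to 32000378, minus strand, in the same coordinates. Static libraries had 1.58, 1.33 and 1.04 CPM and shear libraries 0.77, 0.61 and 0.60 CPM. The groups did not overlap, but static library 3 came close to the shear libraries, and the values rest on 36 to 54 counts per static and 20 to 26 per shear library. The log2 fold change was -0.99 ± 0.29 (SE, 95% interval -1.60 to -0.38, edgeR adjusted p = 0.020). The call ended when static library 1 (edgeR adjusted p = 0.11), static library 2 (0.050), shear library 2 (0.064) or shear library 3 (0.072) was left out, although the log2 fold change stayed between -1.13 and -0.83 under the 14 alternatives. Its neighbour on the chromosome, Adamts8, another aggrecan-cleaving family member, lies 18181 bases away on the opposite strand with 0 genes between them in the table. Adamts8 had 3.66 ± 0.31 CPM in static and 3.73 ± 0.56 CPM in shear libraries (SD, n = 3 each), and its log2 fold change was 0.03 ± 0.15 (SE; edgeR adjusted p = 0.93).

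Adamts1 was the most abundant member and fell slightly. It encodes a protease of versican and aggrecan and lies at 25342126 to 25350974 on the minus strand of chromosome 11, next to Adamts5, with 60000 bases and 0 genes between them in the table. Its level was 215, 220 and 227 CPM in static libraries and 191, 202 and 205 CPM in shear libraries. All shear libraries were below all static libraries, with a gap narrower than the range of either group. The fall was 9.8% (log2 fold change -0.15 ± 0.05 SE, 95% interval -0.24 to -0.05, edgeR adjusted p = 0.026). Of the 6 runs that each left out 1 library, 3 ended this call, those without static library 2 (edgeR adjusted p = 0.074), static library 3 (0.11) or shear library 1 (0.12). The 95% intervals of the neighbours Adamts1 and Adamts5 did not meet.

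Adamts9, whose product cleaves versican and aggrecan, was lower in each shear library but missed the threshold. Static libraries had 18.5, 17.5 and 16.5 CPM and shear libraries 13.2, 16.2 and 15.3 CPM. The highest shear library was just under the lowest static library, and shear library 1 was again the lowest. The log2 fold change was -0.24 ± 0.09 (SE, 95% interval -0.41 to -0.06, edgeR adjusted p = 0.057). The gene passed with upper-quartile factors (edgeR adjusted p = 0.033), with library totals alone (0.015) and without shear library 2 (0.037). Over the 14 alternatives its log2 fold change ranged from -0.30 to -0.15 and its adjusted p from 0.015 to 0.27, the latter without shear library 1 (log2 fold change -0.15).

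Adamts4, the other main aggrecanase gene of cartilage, was scarce and its groups overlapped. It had 1.94, 1.82 and 2.17 CPM in static and 2.29, 1.90 and 2.55 CPM in shear libraries, from 62 to 85 counts per library. Shear library 2 lay inside the static range. The log2 fold change was 0.19 ± 0.20 (SE, 95% interval -0.22 to 0.59, edgeR adjusted p = 0.58), so a fall of the size seen in Adamts5 lay outside the interval while a moderate rise did not.

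**Figure D2:**
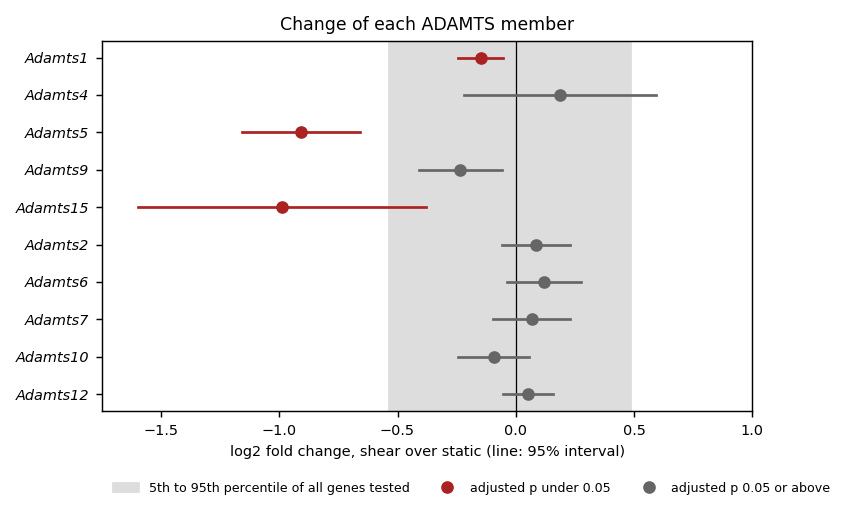
Log2 fold change of each member, shear over static (horizontal axis; point, with its 95% interval as a line), coloured by whether the edgeR adjusted p was under 0.05, over the range from the 5th (-0.54) to the 95th (0.49) percentile of all genes tested (grey). The points of Adamts5 and Adamts15 lie left of the grey range, though the interval of Adamts15 reaches into it. The points of the other members lie inside the grey range.

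The members with roles outside aggrecan and versican turnover showed no change past the threshold. Adamts2, which encodes the protease that removes the amino-terminal propeptide of fibrillar procollagens, had 23.6 ± 1.6 CPM in static and 25.0 ± 0.7 CPM in shear libraries (SD, n = 3 each). Its log2 fold change was 0.09, with a 95% interval of -0.06 to 0.23. Adamts7 and Adamts12 encode related enzymes that cleave cartilage oligomeric matrix protein. Adamts12 had 90.2 ± 4.6 and 93.5 ± 2.6 CPM in static and shear libraries (SD, n = 3 each), and its 95% interval of -0.05 to 0.16 on the log2 scale was the narrowest among these 5. Adamts7 had 18.6 ± 1.5 and 19.5 ± 1.4 CPM (SD, n = 3 each), with a 95% interval of -0.10 to 0.23. Adamts6 and Adamts10 form another pair of related genes, and ADAMTS10 is known to bind fibrillin microfibrils. Adamts6 had 17.7 ± 1.3 and 19.2 ± 0.7 CPM (SD, n = 3 each; 95% interval -0.04 to 0.28), and Adamts10 had 23.1 ± 0.9 and 21.7 ± 1.7 CPM (95% interval -0.24 to 0.06). The ranges of the static and shear libraries overlapped in each of these 5 genes.

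To compare genes with each other, counts were divided by exon length and given as CPM per kilobase. On this scale Adamts1 led the family with a level of 50.2 ± 1.4 in static and 45.3 ± 1.6 in shear libraries (SD, n = 3 each), followed by Adamts12 with levels of 10.5 and 10.9. Adamts1 made up 60.2% of the summed level of the 10 members in static and 58.4% in shear libraries. Below Adamts12 the static order was Adamts10, Adamts6, Adamts2, Adamts7, Adamts5, Adamts9, Adamts4 and Adamts15, with levels from 5.28 down to 0.22. Neighbours in this order had ranges apart, except Adamts10 and Adamts6, and Adamts7 and Adamts5. In shear libraries Adamts6 stood before Adamts10, again with overlapping ranges. Adamts5 dropped from a level of 2.91 ± 0.16, close to Adamts7, to 1.55 ± 0.24 (SD, n = 3 each), where its range met that of Adamts9. Its share of the summed level went from 3.5% to 2.0%.

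**Figure D3:**
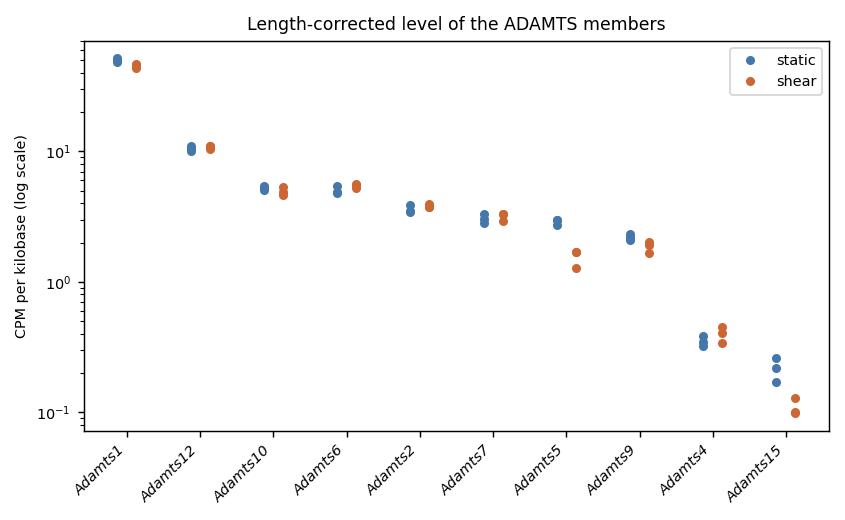
Length-corrected level of each member (vertical axis, CPM per kilobase, log scale) in the 3 static and 3 shear libraries (points), ordered by the static mean. Adamts1 lies above the other members in both groups, and Adamts5 moves from the level of Adamts7 in static to that of Adamts9 in shear libraries.

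The summed level of the 10 members was 81.5, 83.0 and 85.5 CPM per kilobase in static and 75.7, 77.9 and 78.9 in shear libraries. The groups did not overlap, and the difference of the means of log2 values was -0.10 (two-sided exact permutation test, p = 0.1, the smallest p that 3 against 3 libraries allow). Without Adamts1 in the sum, an alternative added after the data were seen, that difference was -0.04, and with library totals alone it was -0.15. Ratios within a library need no scaling between libraries. The level of Adamts5 was 8.32 times that of Adamts4 in static libraries and 3.89 times in shear libraries (geometric means). Per library the log2 ratio was 3.13, 3.08 and 2.97 in static and 1.65, 2.33 and 1.90 in shear libraries, so each static library exceeded each shear library (exact permutation p = 0.1).

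Adamts5 could also be set beside the gene of its substrate. Acan, the aggrecan gene, had 13.6, 14.2 and 14.9 CPM in static and 12, 11.0 and 10.8 CPM in shear libraries and fell by 0.34 on the log2 scale (SE 0.09, edgeR adjusted p = 0.0065). The log2 ratio of the length-corrected levels of Adamts5 and Acan was 0.61, 0.41 and 0.49 in static and -0.44, 0.10 and 0.12 in shear libraries. The length-corrected level of the protease transcript went from 1.42 times that of its substrate transcript to 0.95 times, with groups that did not overlap (exact permutation p = 0.1). Which transcript stands higher depends on the length correction. With it, Adamts5 was below Acan only in shear library 1. Without it Adamts5 was below Acan in static libraries too (9.26 against 14.2 CPM on average). The difference of the log2 ratios, -0.58, was the same without the correction, and was -0.40 without shear library 1. Vcan, the versican gene and a substrate of the same enzymes, was far more abundant at 2069 ± 79 CPM in static and 2246 ± 105 CPM in shear libraries (SD, n = 3 each; log2 fold change 0.12, edgeR adjusted p = 0.082). Of 18 listed substrates and binding partners in the matrix, 15 were tested, 3 rose and 1, Acan, fell. Of all genes tested, 10.8% rose and 7.71% fell. The median log2 fold change of the 15 was 0.10. The genes that rose were Lox (0.38), the collagen cross-linking enzyme, Dcn (0.17), which encodes decorin, and Fn1 (0.13), which encodes fibronectin.

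Among the genes that restrain ADAMTS enzymes, Timp3 moved opposite to Adamts5. Timp3 encodes a matrix-bound inhibitor of ADAMTS4 and ADAMTS5. It had 2.79, 2.90 and 2.11 CPM in static and 5.89, 4.81 and 4.99 CPM in shear libraries, with no overlap between the groups. The rise was 1.01 ± 0.16 on the log2 scale (SE, 95% interval 0.69 to 1.33, edgeR adjusted p = 3.3e-05). Timp1, which encodes a metalloproteinase inhibitor not known as a strong inhibitor of these enzymes, rose by 0.24, and Sdc4, a cell-surface proteoglycan linked to ADAMTS5 activation in mice, fell by 0.14 (edgeR adjusted p = 0.0011 and 0.034). Lrp1, the endocytic receptor, had 1030 ± 25 and 1099 ± 42 CPM (SD, n = 3 each; log2 fold change 0.09, edgeR adjusted p = 0.17). Of the 12 genes listed as inhibitors, uptake receptors or docking proteins, 2 rose and 1 fell among the 9 tested, whose median log2 fold change was 0.03. Of 7 genes for prodomain removal, activation and O-fucosylation of the thrombospondin repeats, each of them tested, the median log2 fold change was 0.11, and 1 rose while 0 fell. The gene that rose was Furin, with a log2 fold change of 0.22 (edgeR adjusted p = 0.0073). Beside the counts of these lists, 10.8% of all genes tested rose and 7.71% fell.

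Several transcription factor genes that have been tied to aggrecanase genes were higher while Adamts5 was lower. Of 12 listed, 10 were tested, 6 rose and 0 fell, beside 10.8% and 7.71% of all genes tested. The median over the 10 was 0.33 on the log2 scale. Runx2, a factor of cartilage hypertrophy and bone, had 9.44, 9.62 and 10.6 CPM in static and 18.3, 22.8 and 20.9 CPM in shear libraries. Its relative Runx1 rose by 0.93, and Sox9, the master regulator of chondrocytes, by 1.26. Nfatc1 (0.60), Epas1 (0.31) and Hif1a (0.29), the last pair encoding hypoxia-inducible factors, also rose. Rela, Nfkb1, Pgr and Sox11 were not called, with log2 fold changes of 0.16, 0.09, 0.35 and -0.14 (edgeR adjusted p = 0.077, 0.27, 0.28 and 0.41). The groups did not overlap in 8 of the 10 tested genes, the 6 called genes among them, against 32.7% of all genes tested.

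**Figure D4:**
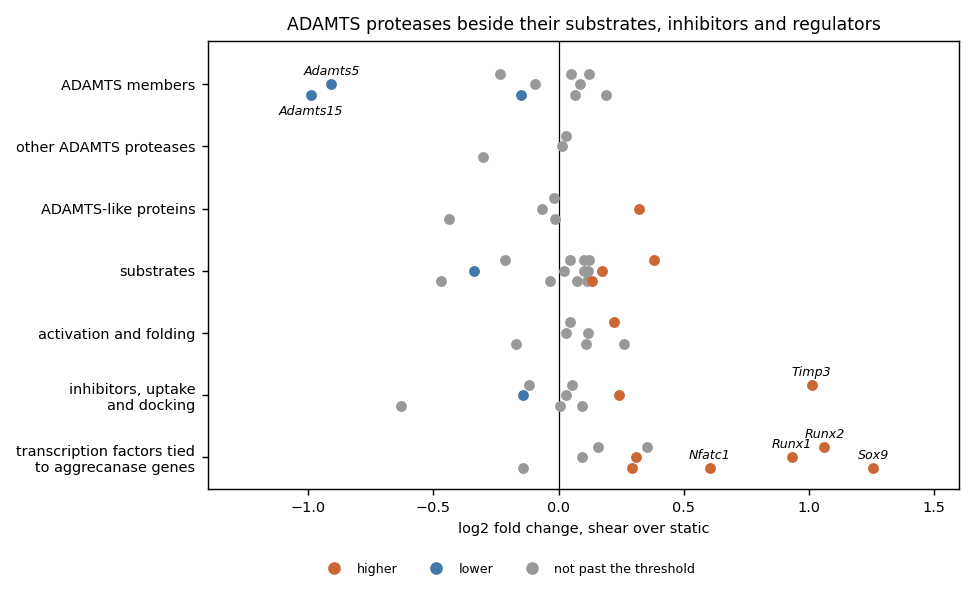
Log2 fold change, shear over static (horizontal axis), of each tested gene (points) in the 10 members and in 6 lists of related genes (rows; vertical offsets only separate points), coloured by call at an edgeR adjusted p under 0.05. The called members lie left of 0, while Timp3 and the called transcription factor genes lie right of 0.

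The rest of the family added little to these changes. Of the other 9 ADAMTS protease genes, 3 were tested, Adamts3, Adamts8 and Adamts14, and 0 rose or fell by edgeR, with log2 fold changes from -0.30 to 0.03 and 0 with an unadjusted p under 0.05. The 6 others had at most 13 counts in any library. Of 6 ADAMTS-like genes, whose products lack the protease domain, 5 were tested. Adamtsl1 rose from 30.7 ± 1.2 to 38.4 ± 1.4 CPM (SD, n = 3 each; log2 fold change 0.32, edgeR adjusted p = 3.8e-04). Adamtsl5 had 4.39 and 3.24 CPM in static and shear libraries, with a log2 fold change of -0.44 (edgeR adjusted p = 0.056).

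Genes of the whole table were ranked by likeness where their mean log2 CPM was 1 or more. Those whose centred log2 CPM lay nearest to that of Adamts5 over the 6 libraries were Zfp347, Rab30 and Mgat3, with Euclidean distances of 0.17 to 0.25. Nearest to Adamts15 were Neb, Etv1 and Trim7 (0.27 to 0.36), and nearest to Adamts1 were Obsl1, Eno3 and Mrpl18 (0.04 to 0.05). With 6 libraries in 2 groups, these are descriptions of like patterns and carry no test.

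Markers of other cell types were compared because bulk RNA cannot tell fewer cells of a type from less RNA per cell. Skeletal muscle markers had a summed level of 23.3 to 25.2 CPM in static and 19.4 to 20.7 CPM in shear libraries, with 3 of 4 tested members lower. The lower genes were Mylpf, Acta1 and Tnnt3, with log2 fold changes of -1.69, -1.26 and -0.68. Myh4, which was not called, made up most of that sum. Its log2 fold change was 0.10, and each shear library lay above each static library. Endothelial markers summed to 9.79 to 11.8 CPM and 5.24 to 9.22 CPM, with 1 of 3 tested members, Kdr, lower. Of the other listed endothelial genes, Cldn5 had 0 counts in each library and Cdh5 had 0 to 2. Vwf had 10 to 20 and Tek 72 to 124 counts per library, and neither was called. A count of 0 can still arise where up to about 3 counts are expected. Summed leukocyte markers (8.03 to 9.50 and 7.93 to 9.38 CPM) and smooth muscle markers (734 to 770 and 715 to 773 CPM) overlapped between the groups. Fibroblast markers summed to 11190 to 11810 CPM in static and 11920 to 12940 CPM in shear libraries, with 1 of 6 lower and 0 higher. Col1a1 and Col3a1, neither of them called, made up most of that sum. Superficial zone markers summed to 1139 to 1170 and 1172 to 1219 CPM, with 3 of 5 higher. Most of that sum was Cd44, which was not called (1029 and 1053 CPM on average). Chondrocyte markers summed to 602 to 615 and 591 to 621 CPM, with Sox9 higher and Acan lower among 4 tested. Most of that sum was Col11a1, which was not called (587 and 582 CPM on average). Of all genes tested, 7.71% were lower and 10.8% higher. The part of the marker shifts in the falls of Adamts5, Adamts15 and Adamts1 was not tested.

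Sequence upstream of the annotated start was available for 8 members from RefSeq (build GRCr8), all but Adamts5 and Adamts15. The 250 bases before the start are printed for Adamts1, the called and most abundant member of the 8, and for Adamts4, the aggrecanase gene without a call. Capitals mark matches, on either strand, to the letters searched.
Adamts1: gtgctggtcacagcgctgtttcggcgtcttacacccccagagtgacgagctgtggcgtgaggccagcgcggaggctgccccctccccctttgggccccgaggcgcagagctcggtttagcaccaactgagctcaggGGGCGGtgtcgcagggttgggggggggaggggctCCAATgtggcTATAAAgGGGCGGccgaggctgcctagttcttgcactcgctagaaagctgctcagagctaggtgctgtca
Adamts4: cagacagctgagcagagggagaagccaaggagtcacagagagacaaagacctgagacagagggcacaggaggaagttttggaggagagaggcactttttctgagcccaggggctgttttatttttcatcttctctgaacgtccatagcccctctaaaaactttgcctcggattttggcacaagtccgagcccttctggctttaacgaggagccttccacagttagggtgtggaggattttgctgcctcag
The first is chr11:38427385-38427634 on the minus strand and the second chr13:86202761-86203010 on the plus strand. The letters searched were TATAAA for the TATA box, CCAAT for the box of that name and GGGCGG for the GC box, and for factor families TGANTCA (AP-1), GGAATG (TEAD), TGTGGT (RUNX), GCGNGGGCG (EGR), ACAAT (SOX) and GGAAAA (NFAT); those of TEAD and NFAT share GGAA. In Adamts1 a CCAAT box, a TATA box and a GC box began 80, 70 and 63 bases before the start, and another GC box 114 bases before it. A TATA box was found in 13.1% of the 27457 promoters of the same length, a CCAAT box in 34.3% and a GC box in 32.4%. The Adamts4 stretch held 0 matches. Among the 8 members the letters for AP-1, TEAD, RUNX, EGR and SOX had 0 matches, against 6.36%, 11.8%, 14.1%, 4.53% and 29.6% of all promoters, and those for NFAT matched in Adamts6 and Adamts12 (21.3% of all promoters). No match says only that these letters are not in this window.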

How the data were processed

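Stranded mRNA libraries were made from Trizol-extracted total RNA, per the labels' protocols. The authors deposited whole-number counts per gene and library, with exon positions and summed exon length (other column), per the file headers. Tools named in the submitters' processing notes are edgeR 3.12.1, Subread 1.5.1 with featureCounts, and Trimmomatic 0.36. The sources used here do not give the aligner, build, annotation, strand setting or counting of pairs. Counts from 1 to 20 were even in 71.4% to 72.2% of cases, so a run with halved counts was included. No exon of a member overlapped an exon of another gene in the table. Columns were matched to libraries by the names in the labels.

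Counts were filtered with filterByExpr (minimum count 10), scaled with TMM and tested with edgeR 4.0.16 in R 4.3.3 (two-sided quasi-likelihood test, no covariates, Benjamini-Hochberg over 13945 genes, 4102 of them with an unadjusted p under 0.05). SEs were obtained by dividing each absolute log2 fold change by the root of its F statistic, and 95% intervals use the total degrees of freedom of the test. The procedure was tested on simulated data. Alternatives were other scalings, DESeq2 1.42.0, limma-voom (limma 3.58.1), no filter, a replicate block, halved counts and leaving out each library. Replicates differed beyond counting noise (chi-square over degrees of freedom 5.61 to 8.25), so none was merged. Members, roles and lists were chosen with earlier results of these data known. Named genes are all members, up to 6 called genes of each list and 6 genes of these lists kept whatever their result. For each called member, the 3 genes nearest in pattern are also named. Genes named outside this rule (Adamts3, Adamts8, Adamts14, Adamtsl5 and single markers) were chosen after their values were seen. Col1a2, Sox4, Pecam1 and Myh1 were not used here.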

Additional observations from a re-analysis of the deposited data

How the results depend on the processing

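The log2 fold changes of the 10 members kept their sign under all 14 alternatives, Adamts12 only just with library totals alone (0.00078). The number of members called was 1 to 3 with each library left out in turn, all of them lower, with 1 (Adamts5) without static replicate 2. It was 4, with Adamts9 added, under library totals alone and under upper-quartile factors. Across all genes, library totals alone gave 1730 lower and 1124 higher genes and upper-quartile factors 1364 and 1275, beside 1075 and 1508 with TMM factors; the cause was not tested. The shear minus static difference of the summed log2 level was -0.154 with library totals alone and -0.040 without Adamts1 in the sum, the latter because Adamts1 makes up most of the sum. With the replicate number as a block, 2 members and 2293 genes were called. Adamts1 was then not called (edgeR adjusted p = 0.058), and the differences in the ratios (-1.10 and -0.58) and in the summed level (-0.10) had an exact sign-flip p of 0.25, the smallest possible. Same-numbered libraries did not deviate together (correlations -0.019, -0.019 and -0.00051), so the numbers were not taken as pairs. Adamts15 and Adamts4 had the lowest counts of the members, 20 to 85 per library, and the widest intervals; with halved counts Adamts15 was still called (edgeR adjusted p = 0.017). Dixon's outlier test was not run, since the groups hold 3 libraries.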
